A study of Saccharomyces cerevisiae with 16 samples.

Results

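Transcript levels of 9 genes of phosphatidylserine and inositol lipid synthesis were examined in budding yeast (Saccharomyces cerevisiae). The 9 genes were taken by name from the 7125 genes in the table, with earlier results of these data known. All of them passed the filter for testing (2 or more biological replicates at an RPKM of 1 or above). RPKM gives reads per kilobase of gene relative to library size, so levels can be compared between genes. The 6 groups had 2 biological replicates each, grown in YPD (rich medium) to an OD600 between 0.7 and 1.0. The groups were serine (genotype wt, treated with serine), control (genotype wt), CK2 (genotype ck2, a name the labels do not explain), WT (genotype wt), H3T11A (genotype t11a) and YBL574 (genotype ybl574). Per the methods, a plasmid supplies histones H3 and H4 in YBL574. H3T11A, whose histone H3 has alanine in place of threonine at residue 11, was made by exchanging that plasmid for one with the mutation. The 2 plasmids differ in more than residue 11. The methods place the H3 gene HHT1 on that of YBL574, and the strain list gives HHT2 and the marker TRP1 for that of H3T11A. The RNA of the H3T11A and YBL574 cultures was sequenced in 2 technical libraries per extraction, which were averaged, and that gave 16 libraries from 12 cultures. Nothing in the labels says how far apart the 2 replicates of a group were grown, so p-values measure only the spread between these samples. For 1 CK2 library the title and the description carry different replicate numbers, and its number here is that of the title. The dose and the duration of the serine treatment are not given in the sources used here.

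Yeast makes phosphatidylserine from serine and the activated lipid CDP-diacylglycerol, converts it to phosphatidylethanolamine by decarboxylation, and methylates that to phosphatidylcholine. The same CDP-diacylglycerol also gives phosphatidylinositol when inositol is present. Genes of the steps from CDP-diacylglycerol to phosphatidylcholine share an upstream element that is bound by the activators Ino2 and Ino4 as a dimer. When cells have ample inositol, the repressor Opi1 leaves the endoplasmic reticulum, where it is held by phosphatidic acid, enters the nucleus and lowers their transcription. The element is known by the sequence CATGTGAAAT, of which CATGTG is the core to which the dimer binds.

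The upstream regions were read from the RefSeq sequence of build R64, 5′ to 3′ along the coding strand of each gene, and are shown because the 9 genes can be set against each other by the presence and the place of the core. Capitals mark the letters CATGTG, or CACATG where the core lies on the opposite strand. The windows of INO1 (chrX:136084-136333, minus strand), ITR1 (chrIV:1445618-1445867, minus strand) and OPI1 (chrVIII:67607-67856, minus strand) hold the bases from 400 to 151 before the start codon. INO1 and ITR1 had the highest levels of the 9 genes in control, and OPI1 had no core.
INO1 window: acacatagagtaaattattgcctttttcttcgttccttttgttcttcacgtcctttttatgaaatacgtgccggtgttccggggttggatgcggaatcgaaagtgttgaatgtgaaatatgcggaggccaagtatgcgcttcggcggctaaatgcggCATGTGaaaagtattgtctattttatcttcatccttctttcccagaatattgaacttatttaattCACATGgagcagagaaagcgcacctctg
ITR1 window: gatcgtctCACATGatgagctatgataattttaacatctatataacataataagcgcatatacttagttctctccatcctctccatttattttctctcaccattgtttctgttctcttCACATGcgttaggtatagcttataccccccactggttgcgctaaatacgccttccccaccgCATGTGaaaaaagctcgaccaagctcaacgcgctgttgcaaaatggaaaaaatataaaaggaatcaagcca
OPI1 window: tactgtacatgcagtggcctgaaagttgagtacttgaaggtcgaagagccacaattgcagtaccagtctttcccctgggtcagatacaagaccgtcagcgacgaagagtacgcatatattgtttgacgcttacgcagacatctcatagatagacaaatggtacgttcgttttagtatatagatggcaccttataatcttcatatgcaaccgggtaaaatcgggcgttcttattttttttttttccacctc

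The 30 bases around cores of the other 6 genes came from CHO1 (chrV:208616-208645, minus strand), CHO2 (chrVII:802091-802120 and chrVII:802161-802190, plus strand), PSD1 (chrXIV:317818-317847, minus strand), OPI3 (chrX:573130-573159, minus strand), INO2 (chrIV:699596-699625, minus strand) and INO4 (chrXV:111990-112019, minus strand). A further core of PSD1 (240 to 235 bases before the start) and of OPI3 (148 to 143 bases before it) is not printed. CHO2 and INO2 each held CACATGTG, in which a core on either strand overlaps the other.
CHO1 core: cctttgagctttCACATGgacccatctaaa
CHO2 far core: tggatctccgaCACATGTGaatttataagt
CHO2 near core: ttattcccttctCATGTGaagagttcacac
PSD1 near core: agcaggcacaagCATGTGgaaaatttgttc
OPI3 far core: tcaatgagagtgCATGTGgaaagttgcacc
INO2 core: caagtacaacaCACATGTGaatttttttca
INO4 core: aaacaaaatattCACATGtttttctcacct

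In the 500 bases before the start codon, on either strand, 8 of the 9 genes held at least 1 core, against 13.2% of the 6000 yeast genes with a full window. At least 2 cores, overlapping ones included, were found in 6 of the 9 genes and in 1.37% of all windows. The 8-letter form CATGTGAA was present in 6 of the 9 genes (INO1, CHO1, CHO2, ITR1, INO2 and INO4) and in 1.45% of all windows. None of the 9 windows held all 10 letters of CATGTGAAAT, which occurred in 0.0667% of all windows. ITR1 and CHO2 each held 3 cores, and the 2 cores of CHO2 that overlap lay 338 to 331 bases before the start. In INO4 the single core lay nearest to the start, 121 to 116 bases before it. These matches describe letters in a window and do not show binding.

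**Figure D1:**
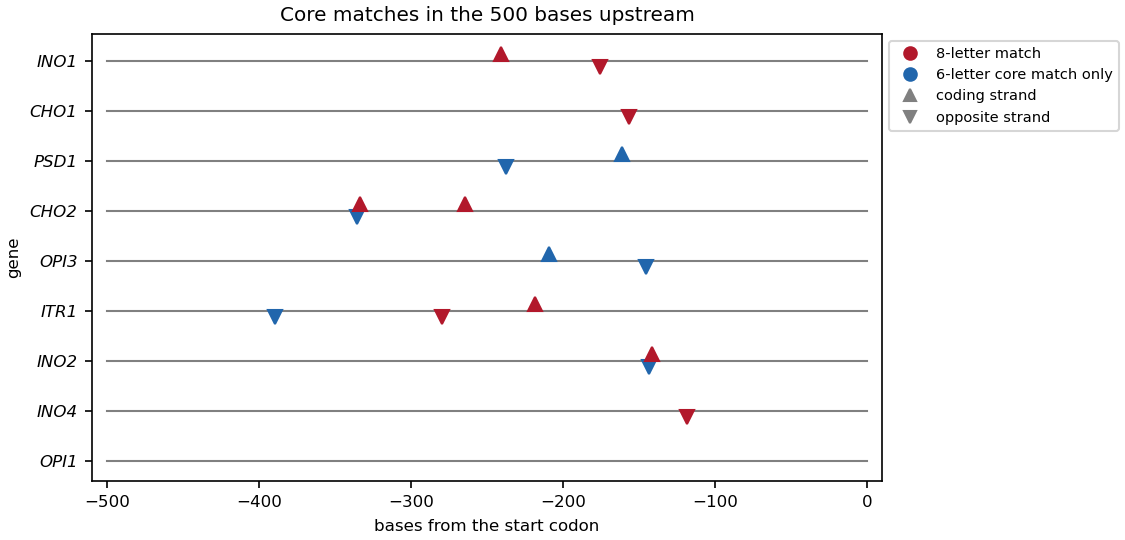
Matches to the core CATGTG in the 500 bases before the start codon of the 9 genes; the horizontal axis is the distance from the start codon in bases, each triangle is 1 match (upward for the coding strand, downward for the opposite strand), and red marks the 8-letter form CATGTGAA. CHO2 and ITR1 show 3 triangles each, and OPI1 shows none.

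Several facts of the whole series bear on what follows. Read totals fitted from the steps of low RPKM values ran between 8774092 and 18077500 per library, and the lowest number of INO1 reads in a library was 187, so counting error was small for this gene. Replicates differed most in H3T11A and CK2, with SDs of their log2 difference over tested genes of 0.54 and 0.48, and the SDs of the remaining groups lay between 0.25 and 0.30. The strains differed in more than their labels say: the summed level of 6 genes of mating type a (MFA1, MFA2, STE2, STE6, AGA2 and BAR1) was 18.1 to 34.2 RPKM in serine, control and CK2, and 1838 to 2658 RPKM in WT, H3T11A and YBL574. The summed level of 4 genes of mating type alpha (MF(ALPHA)1, MF(ALPHA)2, STE3 and SAG1) was 442 to 1557 RPKM in serine, control and CK2, and 18.2 to 29.2 RPKM in the other 3 groups. Most of the higher sums came from MF(ALPHA)1, at 340 to 1491 RPKM, and STE3 was also higher there. SAG1 did not separate the groups, at 18.9 and 15.4 RPKM in control, against 16.6 and 20.4 RPKM in H3T11A. MF(ALPHA)2 was at 2.78 and 0.704 RPKM in control, against 2.21 and 1.07 RPKM in YBL574. CKA1, a catalytic subunit of casein kinase 2, was at 0.064 and 0.068 RPKM in CK2, against 66.9 and 57.5 RPKM in WT. HHT1, the H3 gene that YBL574 carries on its plasmid, was at 6.78 and 9.78 RPKM in H3T11A, against 1087 and 1200 RPKM in YBL574. A change in codon 11 leaves no trace in gene-level values.

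The 9 genes shared a pattern across the 6 groups. In every one of them, the lowest of the 4 serine and control replicates lay above the highest of the 8 replicates of CK2, WT, H3T11A and YBL574. Among all tested genes this was so for 1224 of 6727 (18.2%), and among 47 further genes of lipid metabolism for 14. The gap was widest for INO1, whose lowest serine or control value was 134 times the highest value elsewhere, and was 6.80 times for ITR1, 6.04 times for OPI3 and 2.58 times for PSD1. It was narrowest for OPI1, the repressor gene, at 1.43 times. In bulk RNA, fewer expressing cells and less RNA per cell cannot be told apart.

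**Figure D2:**
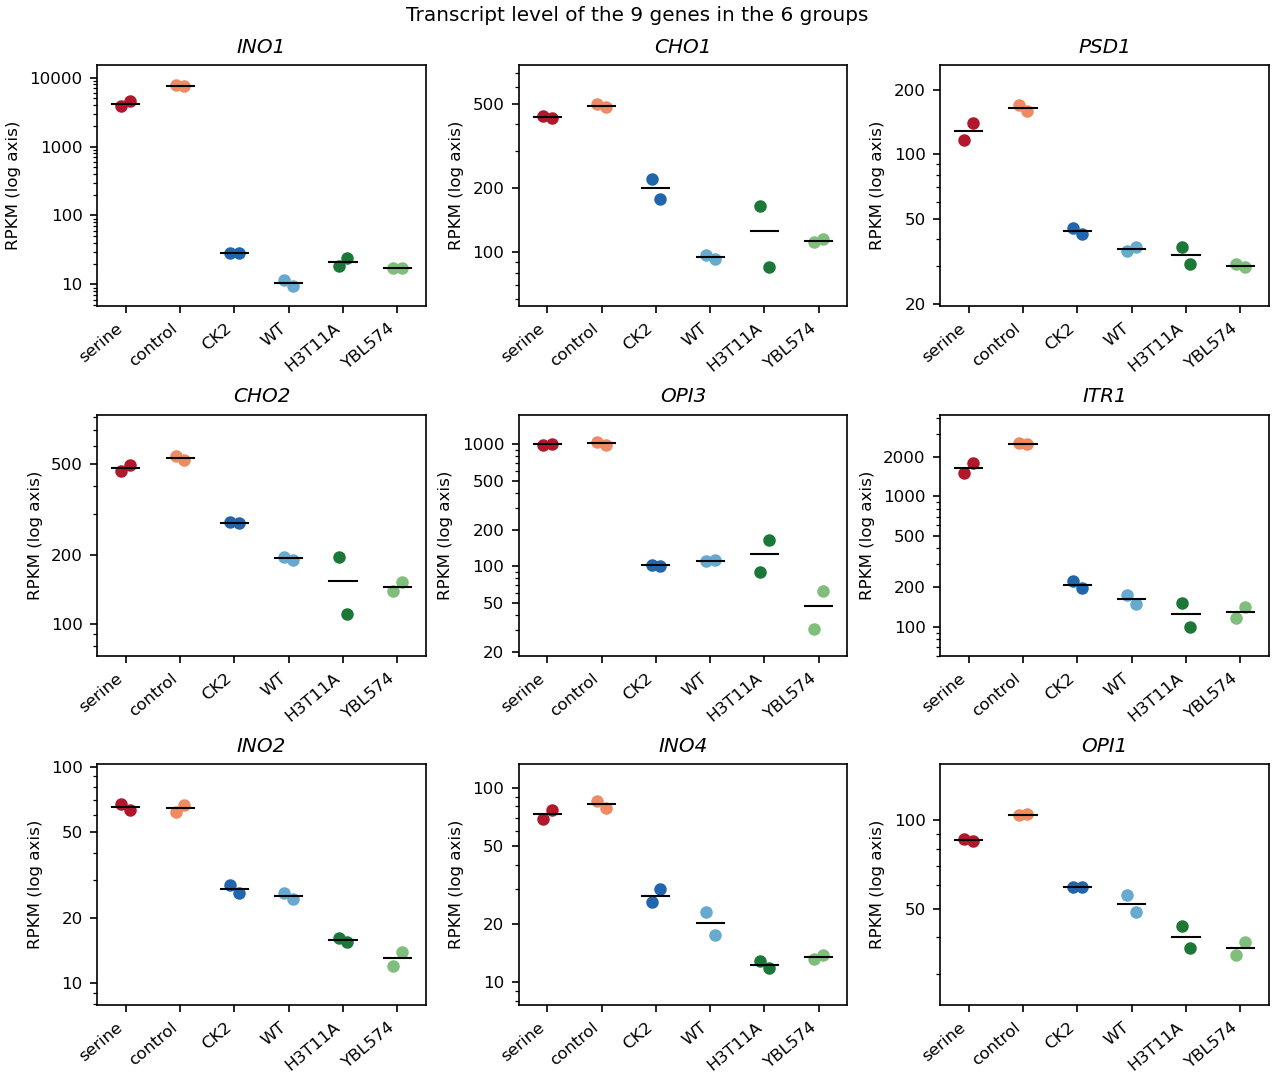
RPKM (log axis) of the 9 genes in the 6 groups; points are the 2 biological replicates and bars their mean. The serine and control points lie above all others in each panel, from 3874 to 7698 RPKM against 9.45 to 29.0 RPKM for INO1, and from 84.8 to 104.6 RPKM against 34.8 to 59.4 RPKM for OPI1.

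Inositol supply was represented by INO1 and ITR1. INO1 (YJL153C, R64 chromosome X, 134332 to 135933) encodes inositol-3-phosphate synthase, which makes inositol phosphate from glucose 6-phosphate. Its level was 3874 and 4527 RPKM in the serine replicates, against 7698 and 7583 RPKM in control. It was 29.0 RPKM in both CK2 replicates, against 11.6 and 9.45 RPKM in WT. In H3T11A it was 18.6 and 24.0 RPKM, against 17.1 and 17.2 RPKM in YBL574. Replicates of neighbouring groups did not overlap anywhere in the order control, serine, CK2, H3T11A, YBL574 and WT. ITR1 (YDR497C, chromosome IV, 1443713 to 1445467) encodes the main inositol transporter of the plasma membrane. It was at 1516 and 1794 RPKM in serine, against 2566 and 2500 RPKM in control. It was at 223 and 197 RPKM in CK2, against 173 and 150.3 RPKM in WT. In H3T11A it was at 151 and 98.5 RPKM, against 116 and 142 RPKM in YBL574, and only these last 2 groups overlapped among neighbours.

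CHO1 and PSD1 make phosphatidylserine and turn it into phosphatidylethanolamine. CHO1 (YER026C, chromosome V, 207644 to 208474) encodes phosphatidylserine synthase, the enzyme that joins serine to CDP-diacylglycerol. It was at 435 and 429.8 RPKM in serine, against 495 and 483 RPKM in control. It was at 221 and 178 RPKM in CK2, against 96.7 and 92.95 RPKM in WT. In H3T11A it was at 165 and 85.1 RPKM, against 111.5 and 115 RPKM in YBL574, so that the H3T11A replicates stood on either side of both YBL574 replicates. PSD1 (YNL169C, chromosome XIV, 316169 to 317671) encodes the mitochondrial phosphatidylserine decarboxylase. It was at 116.5 and 140.4 RPKM in serine, against 170.3 and 159 RPKM in control. It was at 45.2 and 42.2 RPKM in CK2, against 35.25 and 36.7 RPKM in WT, and at 36.6 and 30.8 RPKM in H3T11A, against 30.5 and 29.7 RPKM in YBL574. The replicates did not overlap within any of these 3 pairs of groups.

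CHO2 and OPI3 carry out the methylation steps to phosphatidylcholine. CHO2 (YGR157W, chromosome VII, 802440 to 805049) encodes the methyltransferase of the first step. It was at 464 and 494 RPKM in serine, against 539.8 and 518 RPKM in control. It was at 277 and 275 RPKM in CK2, against 196 and 190.3 RPKM in WT. In H3T11A it was at 196 and 109.7 RPKM, against 138 and 151.5 RPKM in YBL574, again on either side. OPI3 (YJR073C, chromosome X, 572315 to 572935) encodes the methyltransferase of the later steps. It was at 992 and 1005 RPKM in serine, against 1042 and 985 RPKM in control, and these groups overlapped. It was at 103 and 101 RPKM in CK2, against 110.5 and 112 RPKM in WT. In H3T11A it was at 90.4 and 163 RPKM, against 31.0 and 63.2 RPKM in YBL574, and YBL574 was the lowest group.

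The regulators were the least abundant of the 9 genes in serine and control. INO2 (YDR123C, chromosome IV, 698554 to 699468) encodes the activator subunit with the transcriptional activation domain. It was at 67.1 and 62.6 RPKM in serine, against 61.8 and 66.3 RPKM in control. It was at 28.3 and 26.0 RPKM in CK2, against 26.0 and 24.5 RPKM in WT, and at 16.1 and 15.4 RPKM in H3T11A, against 12.02 and 14.0 RPKM in YBL574. For INO2 both the serine and control values and the CK2 and WT values overlapped. INO4 (YOL108C, chromosome XV, 111431 to 111886) encodes its DNA-binding partner. It was at 69.2 and 77.0 RPKM in serine, against 85.4 and 78.7 RPKM in control. It was at 25.7 and 30.1 RPKM in CK2, against 22.9 and 17.4 RPKM in WT, and at 12.8 and 11.7 RPKM in H3T11A, against 13.2 and 13.7 RPKM in YBL574. OPI1 (YHL020C, chromosome VIII, 66242 to 67456) encodes the repressor. It was at 86.0 and 84.8 RPKM in serine, against 104.3 and 104.6 RPKM in control. It was at 59.4 and 59.1 RPKM in CK2, against 55.5 and 48.6 RPKM in WT, and at 43.6 and 36.8 RPKM in H3T11A, against 34.8 and 38.65 RPKM in YBL574. Activator and repressor transcripts were thus both higher in serine and control than in the other groups.

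The 2 groups of genotype wt, control and WT, were then set against each other, although their mating-type genes, given above, and URA3, given below, differed. All 9 genes were higher in control (limma, adjusted p below the threshold of 0.05), where 59.0% of all tested genes passed the threshold, 22.1% as higher and 36.9% as lower. The log2 fold change on the log2(RPKM + 1) scale was 9.38 ± 0.14 (SE) for INO1 (adjusted p = 1.51e-09), and the mean level was 7641 ± 81.4 RPKM in control, against 10.5 ± 1.51 RPKM in WT (SD, n = 2 each), a ratio of 726. ITR1 rose by 3.96 ± 0.20 on the log2 scale (adjusted p = 1.11e-06) and OPI3 by 3.17 ± 0.32 (adjusted p = 5.03e-05), ratios of 15.6 and 9.10. CHO1 was 5.16 times higher in control, PSD1 4.57 times, INO4 4.07 times, CHO2 2.74 times, INO2 2.54 times and OPI1 2.01 times. The median log2 fold change was 2.16 over the 9 genes and -0.17 over all tested genes. All 9 passed as higher in a fit of only these groups, under both other scalings, with the replicate block and with each replicate left out.

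Other differences between control and WT stood beside these. The summed level of the mating type alpha genes was higher in control and that of the mating type a genes was higher in WT, as given above. URA3, which encodes an enzyme of uracil synthesis, was at 39.1 and 37.4 RPKM in control, against 0.102 and 0.201 RPKM in WT. CHA1, which encodes the serine and threonine deaminase and is induced by serine, was at 2.17 and 1.81 RPKM in control, against 334 and 408 RPKM in WT, and at 796 and 820 RPKM in serine. Strain, culture and sequencing batch cannot be told apart in this comparison.

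In the wider list of 47 lipid genes, 18 were higher in control than in WT and 9 were lower, beside 22.1% higher and 36.9% lower of all tested genes, and its median log2 fold change was 0.06, beside -0.17 over all tested genes. The largest difference was in GIT1, which encodes a permease for glycerophosphoinositol and glycerophosphocholine, with 229 and 219.8 RPKM in control, against 2.69 and 3.64 RPKM in WT. On the log2 scale GIT1 rose by 5.77 ± 0.17 (SE, adjusted p = 4.57e-08). All 3 genes of fatty acid synthesis were higher in control, namely FAS2 (1.74 ± 0.11), FAS1 (1.25 ± 0.12) and the acetyl-CoA carboxylase gene ACC1 (1.05 ± 0.13). In the Kennedy pathway, which builds phosphatidylcholine and phosphatidylethanolamine from free choline and ethanolamine, CKI1, CPT1 and EPT1 were higher and ECT1 was lower. PIS1, which encodes phosphatidylinositol synthase, was lower in control (log2 fold change -0.64 ± 0.12, adjusted p = 0.00149), with 143 and 124 RPKM, against 208.5 and 207 RPKM in WT. NTE1, which encodes a phospholipase that removes both acyl chains of phosphatidylcholine, was also lower (-1.20 ± 0.10). The genes named in this paragraph were chosen after their values were seen.

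**Figure D3:**
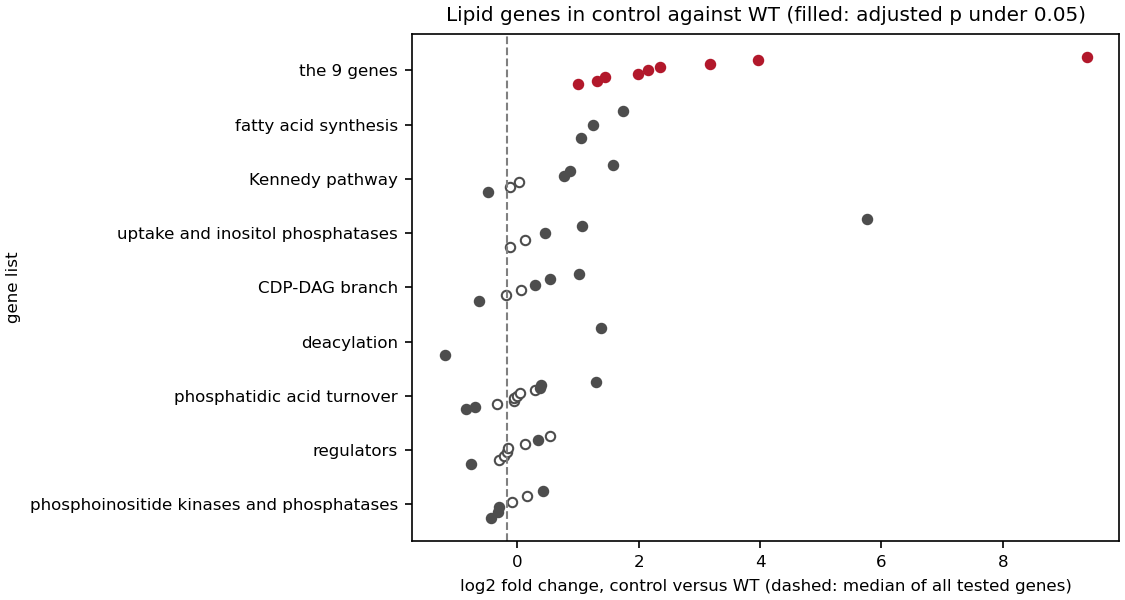
Log2 fold change of control over WT on the log2(RPKM + 1) scale for the 9 genes and for the 8 groups of the wider lipid list; each point is 1 gene, filled where it passed the threshold, and the dashed line is the median of all tested genes, -0.17. INO1 stands at 9.38, the other 8 genes of the main list lie between 0.99 and 3.96, and GIT1 is at 5.77 among the wider list.

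Genes that share the 8-letter form CATGTGAA upstream were also looked at beyond the 9. Of 80 other tested genes with such a match, 36 (45%) were higher in control than in WT and 17 (21.2%) were lower, with a median log2 fold change of 0.23. Over all 5913 tested genes with a window, 23.9% were higher and 38.3% lower, with a median of -0.15. Of the 765 other genes with any CATGTG core, 29.4% were higher and 35.7% lower, with a median of -0.07. In the wider lipid list, 5 of the 6 genes with the 8-letter form (CDS1, CKI1, CPT1, HNM1 and FAS2, but not EKI1) were higher in control, and 13 of the 41 without it. Between CK2 and WT, 18.8% of the same 80 genes were higher and 13.8% lower, beside 17.4% and 14.7% of all genes with a window. Between H3T11A and YBL574, 16.2% were higher and 26.2% lower, beside 20.3% and 22.3%. These shares are descriptions with no test, and the grouping by motif was made after the levels were known.

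The serine comparison asked which of the 9 transcripts differ when serine, the substrate of Cho1, is added. INO1 was the only one of the 9 that passed the threshold, and it was lower in serine, where 1.34% of all tested genes passed, 0.714% as higher and 0.624% as lower. Its mean was 4201 ± 462 RPKM in serine, against 7641 ± 81.4 RPKM in control (SD, n = 2 each), 0.55 times the control level. The log2 fold change was -0.87 ± 0.14 (SE, 95% interval -1.18 to -0.55, adjusted p = 0.024). The call was lost in a 2-group fit (adjusted p = 0.0863) and with any replicate left out (adjusted p between 0.0929 and 0.227), while both serine replicates lay below both control replicates. With group weights, in which each group has a weight shared by all genes, the adjusted p was 0.000929 (limma).

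CHO1, whose product uses serine, did not pass, with a log2 fold change of -0.18 and a 95% interval from -0.74 to 0.39. The intervals use the spread within all 6 groups, H3T11A included, where the CHO1 replicates lay at 165 and 85.1 RPKM. In a fit of serine and control alone the SE was 0.037 for CHO1 (adjusted p = 0.116, limma), 0.053 for CHO2 and 0.052 for OPI3. ITR1 had -0.62 ± 0.20 (SE, adjusted p = 0.192), PSD1 -0.36 ± 0.12 (adjusted p = 0.188) and OPI1 -0.29 ± 0.11 (adjusted p = 0.256), and in each of these 3 genes both serine replicates lay below both control replicates. The intervals of CHO2 (-0.64 to 0.35), OPI3 (-0.75 to 0.71), INO4 (-0.47 to 0.14) and INO2 (-0.20 to 0.24) held 0. In CHO1, CHO2 and INO4 both serine replicates also lay below both control replicates. How many of all tested genes had such a gap was not counted, so these gaps add nothing to the tests. In the wider list such gaps went both ways, as in CDS1 (lower in serine) and DGK1 (higher). The median over the 9 genes was -0.18, beside 0.00 over all tested genes. In the wider list 2 of 47 genes were lower in serine and 0 were higher (limma, 10 at an unadjusted p under 0.05). These were GIT1, with 107 and 108 RPKM in serine, against 229 and 219.8 RPKM in control (log2 fold change -1.05 ± 0.17, adjusted p = 0.024), and FAS1, with 529.5 and 523.5 RPKM in serine, against 818 and 808 RPKM in control (-0.63 ± 0.12, adjusted p = 0.0395). ACC1 was at 260.1 and 258 RPKM in serine, against 411 and 399.6 RPKM in control, and did not pass, but it did in a 2-group fit (adjusted p = 0.0337), as did FAS2 (0.0478). With any 1 of the 4 replicates left out, 0 of the wider list passed (limma, 6 to 8 at an unadjusted p under 0.05).

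**Figure D4:**
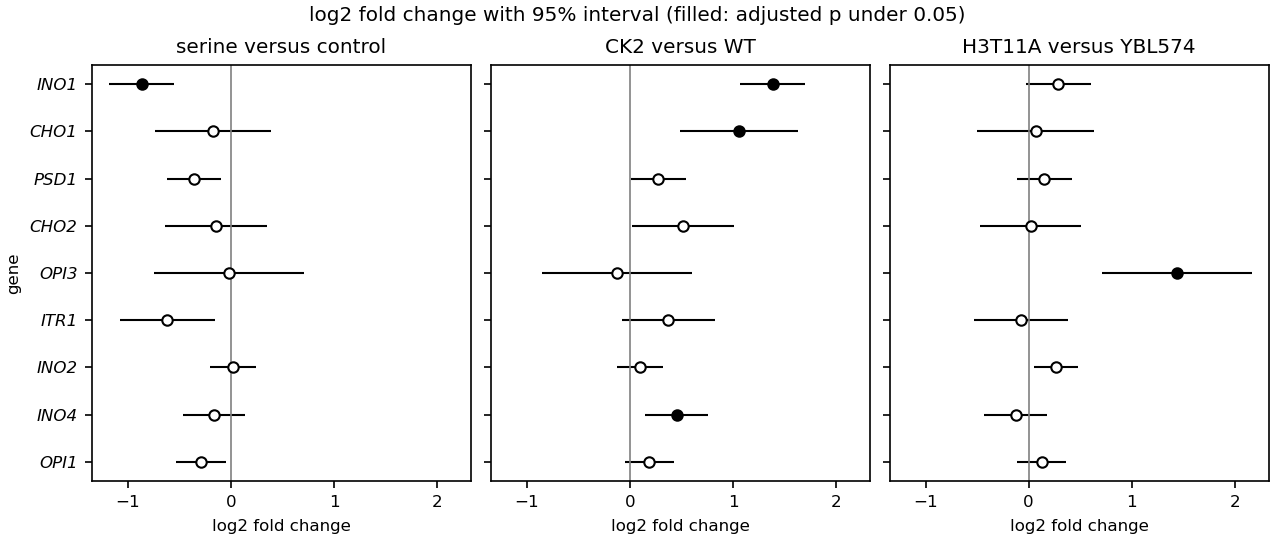
Log2 fold changes of the 9 genes on the log2(RPKM + 1) scale with 95% intervals, for serine over control, CK2 over WT and H3T11A over YBL574; filled points passed the threshold of 0.05 after adjustment over all tested genes. The filled points are INO1 in serine (-0.87), INO1, CHO1 and INO4 in CK2 (1.39, 1.06 and 0.46) and OPI3 in H3T11A (1.44). The intervals use the spread within all 6 groups, not that of the compared pair alone.

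Between CK2 and WT, 3 of the 9 genes were higher in CK2 and 0 were lower (limma), where 31.0% of all tested genes passed the threshold, 16.4% as higher and 14.6% as lower. Of the 9 genes, 5 had an unadjusted p under 0.05, all with a positive fold change. INO1 was at 29.0 ± 0.017 RPKM in CK2, against 10.5 ± 1.51 RPKM in WT (SD, n = 2 each), 2.76 times higher. On the log2 scale INO1 rose by 1.39 ± 0.14 (SE, adjusted p = 0.000222), and it passed under all 13 other settings without a block. CHO1 was 2.11 times higher (1.06 ± 0.25, adjusted p = 0.0123). CHO1 lies on chromosome V, whose 289 tested genes had a median of 0.91 on the log2 scale, and 0.15 was left after that median was taken off. Its call was lost without CK2 replicate 2 (adjusted p = 0.0825), without WT replicate 2 (0.0607) and without WT replicate 3 (0.0642). INO4 was 1.38 times higher (0.46 ± 0.14, adjusted p = 0.031), and its call was lost in a 2-group fit (adjusted p = 0.0801) and with first technical libraries only (0.071). The latter fit changes no CK2 or WT value, only the spread taken from H3T11A and YBL574. The INO4 call was also lost without CK2 replicate 3 and without WT replicate 3. Its log2 fold change lay between 0.27 and 0.65 under the 13 other settings without a block.

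CHO2 (0.51 ± 0.22, adjusted p = 0.105), PSD1 (0.27 ± 0.12, adjusted p = 0.104) and ITR1 (0.37 ± 0.20, adjusted p = 0.187) did not pass. Their CK2 replicates lay above their WT replicates, a gap that was not counted over all tested genes. All 3 passed in a 2-group fit, which called 2938 of all tested genes, against 2083 in the fit of all groups. OPI3 was the only one of the 9 with a negative value, -0.12 with a 95% interval from -0.85 to 0.60. INO2 had 0.10 (-0.12 to 0.32) and OPI1 0.19 (-0.05 to 0.43). The CK2 replicates differed in mitochondrial transcripts, with COX1 at 0.711 and 941 RPKM and COB at 0.493 and 677 RPKM in replicates 2 and 3, whereas COX2 was at 772 and 932 RPKM and COX3 at 2281 and 1326 RPKM. CK2 and WT also differed in their mating-type genes. The part of either difference in these values was not tested.

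In the wider list 12 of 47 genes were higher in CK2 and 3 were lower, beside 16.4% higher and 14.6% lower of all tested genes, and its median was 0.12, beside 0.01 over all tested genes. All 3 genes of fatty acid synthesis were higher, with ACC1 at 390.2 and 365 RPKM in CK2, against 208 and 184 RPKM in WT (log2 fold change 0.94 ± 0.13, adjusted p = 0.00117). FAS1 had 0.80 ± 0.12 and FAS2 0.63 ± 0.11. GIT1 was at 8.48 and 5.63 RPKM in CK2, against 2.69 and 3.64 RPKM in WT (0.94 ± 0.17, adjusted p = 0.00372). SCS2, which encodes the membrane protein that holds Opi1 at the endoplasmic reticulum, was at 475 and 476 RPKM in CK2, against 264 and 251 RPKM in WT (0.88 ± 0.19), and it too lies on chromosome V. The 3 lower genes were PIS1 (-0.64 ± 0.12), the phosphatidylcholine pathway gene PCT1 (-0.61 ± 0.08) and SAC1 (-0.29 ± 0.10), which encodes a phosphoinositide phosphatase. PIS1 was at 126 and 139.9 RPKM in CK2, against 208.5 and 207 RPKM in WT. The comparisons of CK2, control and YBL574 with WT share the WT samples, and those of serine with control and of control with WT share the control samples.

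Between H3T11A and YBL574, 1 of the 9 genes, OPI3, was higher in H3T11A and 0 were lower (limma, 2 at an unadjusted p under 0.05), where 40.7% of all tested genes passed the threshold, 19.1% as higher and 21.6% as lower. OPI3 averaged 127 ± 51.4 RPKM in H3T11A and 47.1 ± 22.7 RPKM in YBL574 (SD, n = 2 each), 2.69 times higher. On the log2 scale it rose by 1.44 ± 0.32 (SE, 95% interval 0.71 to 2.16, adjusted p = 0.00794). The replicates of either group differed, by 1.8 times in H3T11A and 2.04 times in YBL574. The call was lost in a 2-group fit (limma, adjusted p = 0.13) and with group weights (0.112). CHO1 and CHO2 had log2 fold changes of 0.07 and 0.02, with H3T11A replicates on either side of YBL574. Without H3T11A replicate 1 both were lower in H3T11A (-0.41 and -0.40), and without H3T11A replicate 3 both were higher (0.54 and 0.44), each past the threshold.

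For INO2 the log2 fold change was 0.26 ± 0.10 (adjusted p = 0.0539), and it passed under both other scalings. Both H3T11A replicates of INO2 lay above both YBL574 replicates, a gap that was not counted over all tested genes. INO1 had 0.28 ± 0.14 (95% interval -0.03 to 0.60), PSD1 0.15 (-0.11 to 0.42), OPI1 0.12 (-0.11 to 0.36), INO4 -0.12 (-0.43 to 0.18) and ITR1 -0.08 (-0.53 to 0.38). The median over the 9 genes was 0.12, beside -0.06 over all tested genes. The groups also differed in plasmid-borne and marker genes: TRP1 was at 97.1 and 99.2 RPKM in H3T11A, against 0.964 and 0.393 RPKM in YBL574, and URA3 at 85.4 and 99.6 RPKM, against 278 and 379 RPKM. The histone plasmid and the H3 substitution cannot be told apart here.

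The technical libraries show how much of these differences a second library from the same RNA can make. For OPI3 the second library was 1.17 and 1.28 times the first in the H3T11A extractions and 1.21 and 1.26 times in the YBL574 extractions, less than the ratio of the biological replicates in either group. For CHO1 and CHO2 the replicate gap within H3T11A (0.51 and 0.56 times, replicate 3 over replicate 1) was likewise wider than the gap between libraries. The second library of INO4 was at 0.51 and 0.92 times the first in H3T11A and at 0.53 and 0.54 times in YBL574, where the biological replicates differed by 1.04 times. Shifts in 1 direction in every extraction were also found in other genes, such as INO1 (1.12 to 1.44 times) and PSD1 (0.63 to 0.88 times). In YBL574, the technical libraries of INO1, CHO1, CHO2, PSD1 and INO4 differed more than the biological replicates did. Serine, control, CK2 and WT had 1 library per extraction.

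**Figure D5:**
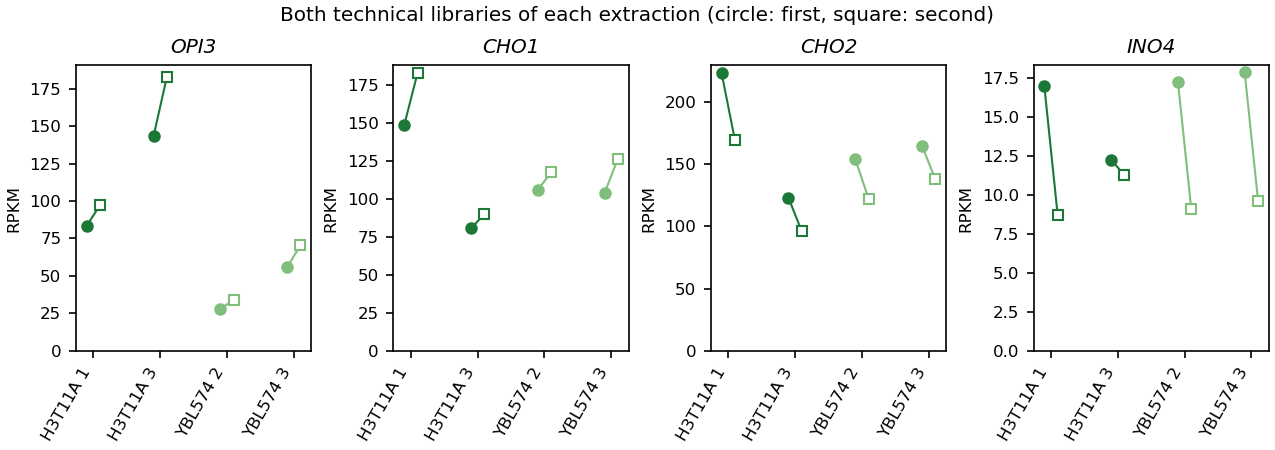
RPKM of OPI3, CHO1, CHO2 and INO4 in the first and second technical library of each H3T11A and YBL574 extraction; circles are first libraries, squares second ones, and a line joins the 2 libraries of 1 extraction. The OPI3 lines stay apart between replicates, and the INO4 lines fall to 0.51 to 0.54 times in 3 of the 4 extractions.

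In the wider list 12 of 47 genes were higher in H3T11A and 4 were lower, beside 19.1% higher and 21.6% lower of all tested genes, and its median was 0.04, beside -0.06 over all tested genes. In a 2-group fit 0 of the 47 passed (limma, 9 at an unadjusted p under 0.05). CDS1, which encodes the synthase of CDP-diacylglycerol, was at 107 and 125 RPKM in H3T11A, against 57.5 and 58.6 RPKM in YBL574 (log2 fold change 0.98 ± 0.10, adjusted p = 0.000225). PIS1 was at 306 and 325 RPKM in H3T11A, against 205.5 and 209.7 RPKM in YBL574 (0.60 ± 0.12, adjusted p = 0.0043). SIN3, which encodes the scaffold of a histone deacetylase complex, had 0.63 ± 0.08. VPS34 and FAB1, which encode phosphoinositide kinases, had 0.49 each. The lower genes were HAC1 (-1.32 ± 0.32), which encodes the transcription factor of the unfolded protein response, the acyltransferase gene SLC1 (-0.74 ± 0.17), the lipid phosphatase gene DPP1 (-0.60 ± 0.09) and SCS2 (-0.56 ± 0.19). HAC1 was at 1631 and 704 RPKM in H3T11A, against 2469 and 2893 RPKM in YBL574.

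YBL574 was set against WT as a comparison of strain backgrounds. Of the 9 genes, INO1 was higher and OPI3, INO2, INO4 and OPI1 were lower in YBL574, where 54.9% of all tested genes passed, 6.42% as higher and 48.4% as lower. The median log2 fold change over all tested genes was -0.36 and moved to 0.06 with upper-quartile scaling, so values are best read relative to it. INO1 (0.66 ± 0.14, adjusted p = 0.00361) and INO2 (-0.91 ± 0.10, adjusted p = 0.000142) kept their calls under both other scalings. OPI3 (-1.31 ± 0.32), INO4 (-0.54 ± 0.14) and OPI1 (-0.49 ± 0.11) lost theirs under both. The INO1 and INO4 means of YBL574 also depend on the technical libraries. For INO1 the first libraries gave 14.4 and 14.1 RPKM and the second ones 19.9 and 20.3 RPKM, against 11.6 and 9.45 RPKM in WT. For INO4 the first libraries gave 17.2 and 17.8 RPKM and the second ones 9.1 and 9.6 RPKM, against 22.9 and 17.4 RPKM in WT. A fit with first libraries only was not run for this comparison. CHO1, CHO2, PSD1 and ITR1 did not pass.

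The genes whose level followed INO1 most closely over the 12 biological replicates were ZPS1, ZRT1 (a zinc transporter of the plasma membrane), ADH4 (an alcohol dehydrogenase), ULI1 and GIT1, with Pearson's r of log2(RPKM + 1) between 0.992 and 0.995. Mean levels of ZRT1 were 1445 RPKM in serine and 1583 RPKM in control, and its replicates lay between 23.9 and 55.4 RPKM elsewhere. PSD1 and ITR1 came 17th and 18th by r (0.984 each), and CHO2 came last of the 9 genes (0.896). These r values describe 12 points that fall into serine and control on one side and the other 4 groups on the other, and no p was computed.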

How the data were processed

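RNA of 12 yeast cultures in 6 groups was sequenced in 16 libraries. The authors deposited 1 table of RPKM values of 7125 genes, and the submitters' processing notes name CASAVA 1.8.2, TopHat2 2.0.13, edgeR and sacCer3, the same assembly as R64. The counting method and the use of strand are not given in the sources used here, so reads of antisense transcripts cannot be told apart from those of the gene. None of the 9 genes overlaps another annotated gene in R64. Of the 7125 genes, 6079 matched the RefSeq annotation of R64.

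Technical libraries of 1 extraction were averaged on the RPKM scale. Values were taken as log2(RPKM + 1), so log2 fold changes understate the change of low genes, and 6727 genes that reached an RPKM of 1 in 2 or more biological replicates were tested. A model with all 6 groups was fitted with limma 3.58.1 in R 4.3.3 (functions lmFit and eBayes, the prior variance with an intensity trend), with 6 residual degrees of freedom, two-sided, and p-values were adjusted by the Benjamini-Hochberg method over all tested genes, with a threshold of 0.05. The model was also run on simulated data, with no outcome given here, so that run lends no weight to the calls. Read totals were fitted as the number that makes low values whole reads: 97.3% to 99.3% of them lay within 0.1 of a whole number. A floor of 3 reads in a gene of 1 kb corresponds to 0.166 to 0.342 RPKM, which covers counting error only.

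The 9 genes and the wider list of 47 lipid genes were chosen with earlier results of these data known. From the wider list, up to 5 genes per direction with the largest fold change past the threshold were named in each of the serine, CK2 and H3T11A comparisons, and others, ACC1 in serine among them, were named after their values were seen. The 5 genes with the highest r to INO1 were named. Alternatives were a fit of the 2 groups alone, 2 other scalings, other pseudocounts, no filter, no trend, group weights, first technical libraries, each replicate left out, and the replicate number as a block.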

Additional observations from a re-analysis of the deposited data

How the results depend on the processing

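The 9 genes were higher in control than in WT under all 8 alternatives run, and INO1 was higher in CK2 and in YBL574 than in WT under every alternative run. For YBL574 with WT, a fit of first technical libraries only was not among them. The other counts moved as follows, and the cause was not tested unless named. In the serine comparison, group weights gave 800 genes over all genes, 4 of the 9 genes and 9 of the wider list, and the fit of the 2 groups alone gave 0 of the 9 (5 at an unadjusted p under 0.05, limma) and 4 of the wider list. With a replicate left out, which leaves a lone sample assumed to vary like the other groups, 15 to 23 genes, 0 to 0 of the 9 (1 to 3 unadjusted) and 0 to 0 of the wider list (6 to 8 unadjusted) passed. In the CK2 comparison, group weights gave 3430 genes and 6 of the 9, upper-quartile scaling 6 of the 9 and the fit of the 2 groups alone 5 of the 9. Leaving out a replicate gave 1062 to 1270 genes, 1 to 2 of the 9 and 8 to 10 of the wider list. In the H3T11A comparison, the fit of the 2 groups alone gave 224 genes, 0 of the 9 (1 unadjusted) and 0 of the wider list (9 unadjusted), and group weights gave 896, 0 (1 unadjusted) and 5. Upper-quartile scaling, median-of-ratios scaling and the first technical libraries each gave 2 of the 9. Leaving out a replicate gave 1656 to 4008 genes (the highest without H3T11A replicate 1), 1 to 4 of the 9 and 9 to 30 of the wider list. Between YBL574 and WT, upper-quartile scaling gave 2302 genes (1321 higher, 981 lower), 3 of the 9 and 14 of the wider list (11 higher), and median-of-ratios scaling 2403 (1203 higher, 1200 lower), 2 and 13 (9 higher), against 3690 (432 higher, 3258 lower), 5 and 30 (2 higher). The fit of the 2 groups alone gave 8 of the 9, and leaving out a replicate 3 to 5. Upper-quartile scaling split the CK2 calls into 1337 higher and 729 lower, against 1100 and 983, and median-of-ratios scaling split the wider list into 8 and 4, against 12 and 3. The control calls over all genes split into 1880 higher and 1970 lower with median-of-ratios scaling, against 1486 and 2480.

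No value that changed sign was past the threshold as reported. In serine, the log2 fold change of OPI3 lay between -0.062 and 0.019 with a replicate left out and that of INO2 between -0.031 and 0.068, with -0.003 for INO2 under median-of-ratios scaling. In H3T11A, leaving out a replicate gave CHO1 between -0.407 and 0.543, CHO2 between -0.397 and 0.437 and ITR1 between -0.381 and 0.231, and upper-quartile scaling gave ITR1 0.016. Between YBL574 and WT, CHO2 moved to 0.038, PSD1 to 0.192 and ITR1 to 0.125 with upper-quartile scaling, and PSD1 to 0.149 and ITR1 to 0.081 with median-of-ratios scaling.

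The replicate numbers did not pair the samples: over 2 pairs, deviations of same-numbered samples had a Spearman's rho of -0.153 across genes for serine and control and -0.011 for CK2 and WT, where the CK2 numbers are those of the titles and 1 description differs. With the replicate block 0 genes passed in serine (1162 at an unadjusted p under 0.05, limma), 0 of the 9 (3 unadjusted) and 0 of the wider list (10 unadjusted). With crossed numbers, chosen after seeing the data, 0 genes passed (1547 unadjusted), 0 of the 9 (7 unadjusted) and 0 of the wider list (14 unadjusted). The block gave 4 of the 9 in CK2 and 8 of the 9 between YBL574 and WT. No paired analysis was possible for H3T11A and YBL574 because they share 1 replicate number. For control with WT and YBL574 with WT, median-of-ratios scaling, the omission of replicates and the block were also chosen after seeing the data. The 2 replicates per group limit every value.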
